A study of Mus musculus with 22 samples.

Results

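The comparison described here is that of mouse hearts taken 28 days after nanosized titanium dioxide (nano-TiO2) was placed in the lungs with hearts taken 1 day after it. It holds 11 of the 22 arrays of the series: 5 nano-TiO2 mice at day 1 and 6 nano-TiO2 mice at day 28, chosen by treatment label alone. All 22 mice were female C57BL/6, bought at 5 to 7 weeks of age and acclimatized for 1 to 3 weeks, and each gave 1 array. The nano-TiO2 mice had received 162 µg of the particle once into the trachea, in 40 µl of liquid followed by 150 µl of air. The other 11 mice (5 at day 1, 6 at day 28) had received the vehicle without the particle, saline with cell-free lung lavage fluid, and nano-TiO2 mice had received that fluid too. The particle was tested at 1 dose in 1 sex, and the day 28 mice were also older, so that time after the instillation and age cannot be told apart within the nano-TiO2 mice. The 11 vehicle mice cover the same interval without the particle, but their day 1 and day 28 hearts also differed in atrial and fat transcripts, as given below. No vehicle mouse enters a nano-TiO2 mean, but the spread behind each SE and p was estimated from all 22 arrays.

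On each array heart RNA carried Cy5 and a common reference RNA, pooled from 11 mouse cell lines, carried Cy3. A value below is the log2 ratio of heart to reference, and a difference is the day 28 mean minus the day 1 mean on that log2 scale, with its standard error (SE). Mice are numbered in the order of their records, and the numbers pair no mice. Between 36.9% and 47.2% of 41174 probes were well above background in the heart channel of the nano-TiO2 arrays, and pairs of these arrays correlated at r between 0.928 and 0.984. The number of arrays limits the precision. The labels name heart as the tissue, while their extraction text speaks of lung. The heart muscle transcripts Tnnt2 (cardiac troponin T) and Actc1 (cardiac actin) stood 5.65 ± 0.19 and 5.97 ± 0.39 (SD, n = 11) above the reference, and Myh6 (the main cardiac myosin) 4.98 ± 0.21 (n = 9 arrays with a value). Sftpc and Sftpb, lung surfactant genes, were well above background on 0 of 22 arrays.

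Titanium dioxide nanoparticles are poorly soluble, and most of an instilled dose meets the lung first. There they cause inflammation with neutrophils and macrophages, while the heart is reached by signals and proteins in the blood or by the few particles that pass into it. A heart sample is a mixture of muscle cells, endothelium, fibroblasts, smooth muscle and immune cells, with pieces of atrium, pericardium and fat that vary with the cut. In such bulk RNA, fewer cells of a type and less RNA per cell cannot be told apart.

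No gene of the nano-TiO2 hearts passed the test between day 1 and day 28. Of 15510 genes tested, 0 (0%) had an adjusted p under 0.05 (limma with Benjamini-Hochberg adjustment), and 705 (4.55%) had an unadjusted p under 0.05, 235 of them higher at day 28 (1.52%) and 470 lower (3.03%). Differences above 0 were found for 43.3% of all genes and below 0 for 56.7%. An unadjusted p under 0.05 is used below only to describe, since about 5% of genes lie there when nothing differs. In the vehicle hearts, 1612 genes (10.4%) passed over the same interval, 1075 higher (6.93%) and 537 lower (3.46%). The nano-TiO2 differences were small: their median size was 0.078 on the log2 scale against 0.12 in the vehicle hearts, and 7 genes against 280 reached a difference of 1. The groups of both days did not overlap in 118 genes of the nano-TiO2 hearts (0.761%) and in 1091 of the vehicle hearts (7.03%). The spread between mice of a group was alike in both arms, with a median SD of 0.16 and 0.17. The median 95% interval of a nano-TiO2 difference reached 0.21 to either side, with narrower intervals for genes that varied less between mice.

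**Figure D1:**
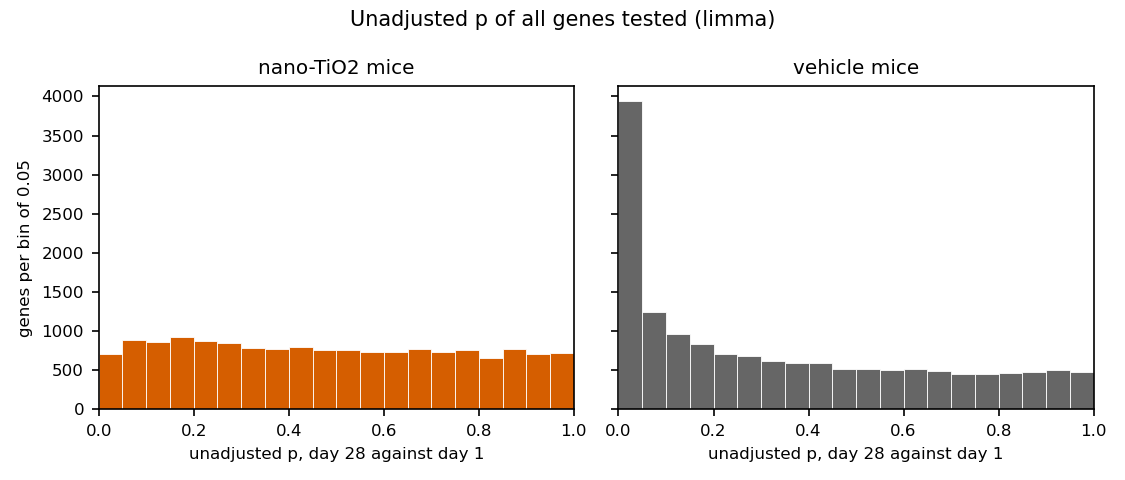
Number of genes (vertical axis) by unadjusted p of day 28 against day 1 (horizontal axis, bins of 0.05) in the nano-TiO2 hearts (left) and the vehicle hearts (right). The lowest bin holds 705 genes in the nano-TiO2 hearts, fewer than the 887 in the next bin, and 3937 genes in the vehicle hearts.

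Centring each array on its median instead of using loess left 99 genes below that unadjusted level. Among them 9.09% were higher at day 28, against 33.3% among the 705. With the authors' series matrix values that share was 46.8%. Median centring also moved the median of all genes from -0.019 to -0.12. Without day 1 mouse 2 the count was 467, and without the 2 nano-TiO2 arrays lowest in atrial transcripts, described below, it was 388. It was higher with scan day as a fixed block (1045, 6.74%) and in a fit of only the 11 nano-TiO2 arrays (964, 6.22%). Array weights gave 957 (6.17%) and the scanner's own log ratios 935 (6.03%). Under all alternatives tried, 0 genes passed in the nano-TiO2 hearts.

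Cx3cl1 came closest to the threshold. It encodes fractalkine, a membrane-bound chemokine that attracts and tethers monocytes through the receptor CX3CR1. In the day 1 hearts its log2 ratio was -1.82, -1.86, -1.98, -1.84 and -1.79, and in the day 28 hearts it ran from -1.51 over a median of -1.34 to -1.27. Every day 28 heart thus lay above every day 1 heart. The difference was 0.50 ± 0.09 (SE; 1.42-fold), with a limma adjusted p of 0.191 after Benjamini-Hochberg adjustment, which ran from 0.0545 to 0.9999 over the alternatives. Cx3cl1 was also higher at day 28 in the vehicle hearts, by 0.34 ± 0.09, where it passed (adjusted p = 0.0194), and the difference between both changes was 0.16 ± 0.13 (unadjusted p = 0.213).

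The next smallest adjusted p among all genes was 0.905, so the genes that follow are described by rank and not as changed. The 12 named genes with the smallest unadjusted p among those higher at day 28 differed by 0.21 to 0.59, and in 7 of the 12 the groups did not overlap, a pattern that 43 of all 15510 genes showed (0.277%). The rank chose these genes, so these counts describe them and support nothing. All 12 were higher at day 28 within each of the 3 scan days and on both slides that held both groups. Each of these slides held 1 mouse of each group, and scan day 1 held 1 day 1 mouse and 2 day 28 mice. The same mice set the rank, so this is no separate test. In the vehicle hearts, 9 of the 12 were also higher at day 28, and 3 passed, beside 10.4% of all genes.

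Prnd, which encodes doppel, a relative of the prion protein, stood at 0.89, 0.47, 1.18, 0.54 and 0.78 in the day 1 hearts, and from 0.96 over a median of 1.31 to 1.64 at day 28. Only day 1 mouse 3 reached into the day 28 range. The difference was 0.53 ± 0.13, and the vehicle hearts had means of 1.26 ± 0.08 at day 1 and 1.38 ± 0.17 at day 28 (SD, n = 5 and 6). Prnd was thus lowest in the nano-TiO2 hearts of day 1.

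Ccnd1, the gene of cyclin D1, which drives cells into the division cycle, read -1.05, -1.25, -1.005, -1.24 and -0.94 at day 1 and -1.02 to -0.62 at day 28, with a median of -0.79. The groups overlapped through day 28 mouse 3 alone. The difference was 0.28 ± 0.08, against -0.09 ± 0.08 in the vehicle hearts.

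Cpxm2, a gene of the carboxypeptidase family, stood at 1.03, 1.13, 1.20, 0.57 and 0.91 at day 1 and from 1.21 over a median of 1.52 to 2.18 at day 28. The groups did not overlap, although day 1 mouse 3 and day 28 mouse 3 lay close together. The difference was 0.59 ± 0.17, while a second probe of the gene gave 0.21.

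Cirbp, an RNA-binding protein induced by cold, read 0.62, 0.87, 0.93, 0.70 and 0.75 at day 1 and 1.06 to 1.48 at day 28 (median 1.31). The groups did not overlap, and the difference was 0.52 ± 0.17, with 0.27 ± 0.17 in the vehicle hearts. Slc41a1, a magnesium transporter, and Rab3d, a small GTPase of secretory vesicles, also had groups that did not overlap, with differences of 0.25 ± 0.08 and 0.21 ± 0.06.

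Actg1, cytoplasmic gamma-actin, whose sequence is close to that of other actins, differed by 0.38 ± 0.12, and its second probe by 0.38. It passed in the vehicle hearts with 0.59 ± 0.12 (adjusted p = 0.00586). Sqor, a mitochondrial enzyme that oxidises sulfide, was likewise higher in both arms, by 0.22 ± 0.07 in the nano-TiO2 hearts and by 0.33 ± 0.07 in the vehicle hearts, where it passed (adjusted p = 0.00742).

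Fen1, the endonuclease that trims DNA flaps during replication, was higher by 0.27 ± 0.09 in the nano-TiO2 hearts and lower by -0.21 ± 0.09 in the vehicle hearts. The difference between these changes was 0.48 ± 0.13 (unadjusted p = 9.96e-04, adjusted p = 0.118). Gabpb1, a subunit of the transcription factor GABP, differed by 0.24 ± 0.08. Ntf5, the neurotrophin that binds the receptor TrkB, was well above background on 0 of 5 day 1 arrays and on 2 of 6 day 28 arrays. Its mean heart signal at day 28 was 1.19-fold that of day 1, a ratio of signals mostly not called above background.

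The 12 named genes with the smallest unadjusted p among those lower at day 28 differed by 0.19 to 0.67 in size. In 7 of the 12 the groups did not overlap, which 75 of all genes showed in this direction (0.484%). All 12 were lower within each of the 3 scan days, and all but Sdf2l1 on both slides that held both groups. Here too the rank chose the genes, and each slide held 1 mouse of each group. In the vehicle hearts, 11 of the 12 were lower too, and 1 passed, beside 10.4% of all genes.

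Nav1, neuron navigator 1, a protein that binds the growing ends of microtubules, had the smallest unadjusted p of these. It read 0.47, 0.77, 0.37, 0.54 and 0.36 at day 1 and ran from -0.03 over a median of 0.14 to 0.25 at day 28. All day 28 hearts lay below all day 1 hearts, and the difference was -0.37 ± 0.08. A second probe gave -0.10, so the 2 probes differ in size.

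Bcl6, a transcriptional repressor known from germinal-centre B cells and also a brake on inflammatory genes, had the largest difference among the 12. The day 1 hearts stood at 0.92, 1.13, 0.57, 0.62 and 0.98, and the day 28 hearts ran from -0.32 over a median of 0.24 to 0.55. The groups did not overlap, but day 28 mouse 3 at 0.55 was next to day 1 mouse 3 at 0.57. The difference was -0.67 ± 0.18 (1.60-fold). The vehicle means were 0.53 ± 0.44 at day 1 and 0.49 ± 0.27 at day 28, between both nano-TiO2 means of 0.85 ± 0.24 and 0.17 ± 0.30.

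Fzd4, a receptor for Wnt proteins and for norrin that endothelium carries, read 3.09, 3.01, 2.99, 3.06 and 2.91 at day 1 and 2.19 to 2.88 at day 28 (median 2.65). The groups did not overlap, and the difference was -0.38 ± 0.11. The vehicle difference was 0.22 ± 0.11, and the difference between both changes was -0.60 ± 0.16 (unadjusted p = 8.96e-04, adjusted p = 0.118).

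Slc46a3, a transporter of the lysosome membrane, stood at 0.63, 0.39, 0.37, 0.41 and 0.56 at day 1 and from -0.28 over a median of -0.02 to 0.20 at day 28. The groups did not overlap. The difference was -0.48 ± 0.13, and in the vehicle hearts -0.36 ± 0.13.

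Ssh2, a phosphatase that activates the actin-severing protein cofilin, differed by -0.31 ± 0.10 without overlap. Pigc, an enzyme of the anchor that holds some proteins to the membrane, differed by -0.19 ± 0.06 in both arms and passed in the vehicle hearts (adjusted p = 0.0379). H4f16, a histone H4 gene with near-identical copies that a probe may not tell apart, differed by -0.24 ± 0.06 without overlap. Etfbkmt (a lysine methyltransferase of mitochondria), Aasdh and Kptn (kaptin, an actin-associated protein) had overlapping groups and differences of -0.27 ± 0.07, -0.30 ± 0.08 and -0.23 ± 0.06, with second probes at -0.20 for Etfbkmt and -0.11 for Kptn. The last members of the 12, Creld2 and Sdf2l1, are described next.

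**Figure D2:**
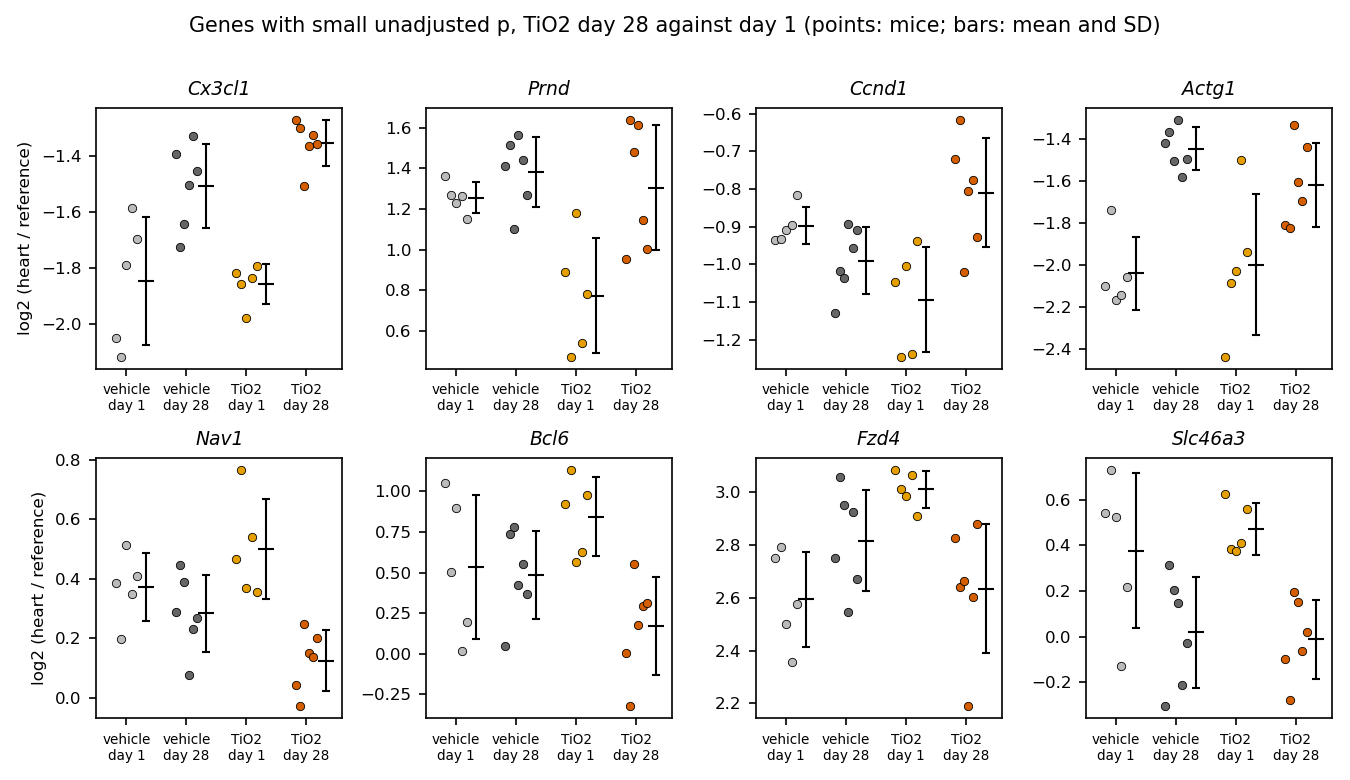
Log2 ratio of heart to reference (vertical axis) in each mouse (points) of the 4 groups (horizontal axis), with the group mean and SD as bars, for 4 genes higher and 4 genes lower at day 28 in the nano-TiO2 hearts. Cx3cl1, Nav1, Bcl6, Fzd4 and Slc46a3 show no overlap between the nano-TiO2 groups; Cx3cl1 and Actg1 were higher at day 28 in the vehicle hearts as well.

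Creld2 and Sdf2l1 belong to the unfolded protein response. When unfolded protein builds up in the endoplasmic reticulum (ER), 3 sensors of its membrane, IRE1, PERK and ATF6, raise the genes of chaperones, of folding enzymes and of ER-associated degradation. Many of these genes carry in their promoters the ER stress response element, CCAAT followed by any 9 bases and CCACG, to which NF-Y and ATF6 bind. That element, searched on both strands, stood in 6 of the 18 measured list members with a promoter of 300 bases in the RefSeq table (GRCm38.p6; 250 bases before to 50 after the start), and in 39 of all 32851 such promoters (0.119%). The 4 stretches shown are those of members with an unadjusted p under 0.05. They are given so that the shared element can be read beside the members' values. Of the 6 members with such a p and a promoter, 4 held the element. Hsp90b1 and Pdia6 held it as well, without such a p. Capitals mark the fixed letters of the element, in reverse complement for Creld2 and Calr.
Hspa5, chr2:34772013-34772055, plus strand: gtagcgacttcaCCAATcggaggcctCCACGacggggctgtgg
Creld2, chr15:88819508-88819550, plus strand: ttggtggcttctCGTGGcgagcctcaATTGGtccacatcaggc
Dnajc3, chr14:118937815-118937857, plus strand: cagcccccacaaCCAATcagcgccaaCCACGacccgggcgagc
Calr, chr8:84847063-84847105, minus strand: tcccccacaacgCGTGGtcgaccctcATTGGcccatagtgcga
In Hspa5 the element lies 65 to 47 bases before the start, and in Calr, the farthest of the 4, 162 to 144 bases before it. A match describes letters and shows no binding.

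Of 20 measured members of the unfolded protein response list, 18 were lower at day 28 in the nano-TiO2 hearts and 2 higher, and 0 passed. An unadjusted p under 0.05 was found for 8 of the 20, all lower, beside the 4.55% of all genes. The median difference of the list was -0.19, beside -0.019 over all genes. In the vehicle hearts it was -0.082 with 0 of 20 passing, beside 10.4% of all genes. Of its members, those with an unadjusted p under 0.05 are named, with others chosen after their values were seen. All members were measured in the same mice, so their count is not one of independent observations. The same limit holds for every list below.

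Of the chaperones, Hspa5, which encodes BiP, the central chaperone of the ER, had the largest difference. It read 0.46, 0.14, 0.01, -0.11 and 0.05 at day 1 and ran from -1.01 over a median of -0.50 to 0.19 at day 28. Of the day 28 hearts only mouse 5 lay within the day 1 range, and the other 5 lay below it. The difference was -0.60 ± 0.20 (1.52-fold; unadjusted p = 0.0059, limma adjusted p = 0.905). The vehicle mean was -0.24 ± 0.43 at day 1 and -0.58 ± 0.32 at day 28.

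Hyou1, a large chaperone that works with BiP, stood at -0.79, -0.80, -0.78, -0.73 and -0.99 at day 1 and from -1.37 over a median of -1.09 to -0.95 at day 28. The groups overlapped through day 1 mouse 5 alone, and the difference was -0.30 ± 0.10. Calr, calreticulin, a lectin chaperone that also holds calcium in the ER, read -0.25, -0.12, -0.42, -0.27 and -0.60 at day 1 and -0.80 to -0.34 at day 28 (median -0.50). Its groups overlapped, and the difference was -0.21 ± 0.10, against 0.09 ± 0.10 in the vehicle hearts.

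Among the partners of BiP, Sdf2l1 stood at -0.83, -0.80, -0.98, -1.08 and -1.48 at day 1 and from -1.59 over a median of -1.42 to -1.29 at day 28. All day 28 hearts lay below the first 4 day 1 hearts and only day 1 mouse 5 fell among them, with a difference of -0.40 ± 0.12. The J-domain proteins Dnajb9 and Dnajc3, which pass clients to BiP, differed by -0.21 ± 0.10 and -0.20 ± 0.10. Their groups overlapped. The 2 other probes of Dnajb9 gave 0.057 and -0.22, whereas the 3 other probes of Dnajc3 gave -0.32, -0.27 and -0.086.

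Creld2 and Manf are secreted or ER-held proteins that ER stress is known to raise. Creld2 read -1.71, -1.45, -1.86, -1.74 and -1.75 at day 1 and -2.58 to -1.74 at day 28 (median -2.20). All but day 28 mouse 3 lay below the day 1 hearts, and the difference was -0.50 ± 0.13 (1.41-fold). Manf stood at -0.48, -0.60, -0.36, -0.68 and -0.96 at day 1 and from -1.26 over a median of -1.05 to -0.81 at day 28, a difference of -0.43 ± 0.15, and the groups overlapped.

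The 2 members higher at day 28 were Atf4, the transcription factor of the PERK branch, and Edem1, which sends misfolded glycoproteins to degradation. Atf4 differed by 0.12 ± 0.11 and Edem1 by 0.10 ± 0.14, both with overlapping groups, and both turned to below 0 with median centring (-0.024 and -0.042). Xbp1, the factor that IRE1 activates by splicing, differed by -0.0063 ± 0.10, and the array does not separate its spliced form. Members of the PERK branch beyond Atf4 had small differences, among them Ddit3 (CHOP) with -0.15 and Trib3 with -0.084 (0.060 for a second probe).

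As a summary for each mouse, the list mean relative to all 22 mice was 0.15, 0.17, 0.12, 0.16 and 0.04 in the day 1 nano-TiO2 hearts, and -0.20, -0.14, 0.03, -0.13, -0.01 and -0.02 in the day 28 hearts. Every day 28 heart lay below every day 1 heart, but narrowly: the nearest pair, day 1 mouse 5 and day 28 mouse 3, stood at 0.038 and 0.033. The list is 1 of 40 and was described at length after its values were seen. The vehicle hearts stood at 0.0099 ± 0.06 at day 1 and -0.036 ± 0.088 at day 28 (SD, n = 5 and 6). The day 1 nano-TiO2 hearts, at 0.13 ± 0.05, thus had the highest mean of the 4 groups. The same hearts gave the list its differences between the days, so this rank is no separate support. The difference between the nano-TiO2 and the vehicle change had an unadjusted p under 0.05 in 3 of 20 members, where 14.6% of all genes did.

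The count of 8 members depended on the processing. It was 9 with the scanner's own log ratios and stayed at 8 without background subtraction. It was 1 with median centring, where all 20 members were lower, 2 with slide as a fixed block, 5 with normexp fitted on all spots, where 12 members were lower and 8 higher, and 4 without the 2 nano-TiO2 arrays lowest in atrial transcripts. Leaving out day 28 mouse 1 gave 5. Within the 3 scan days the median of the list lay between -0.35 and -0.13. On the 2 slides, with 1 mouse of each group on each, it was -0.34 and -0.032.

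**Figure D3:**
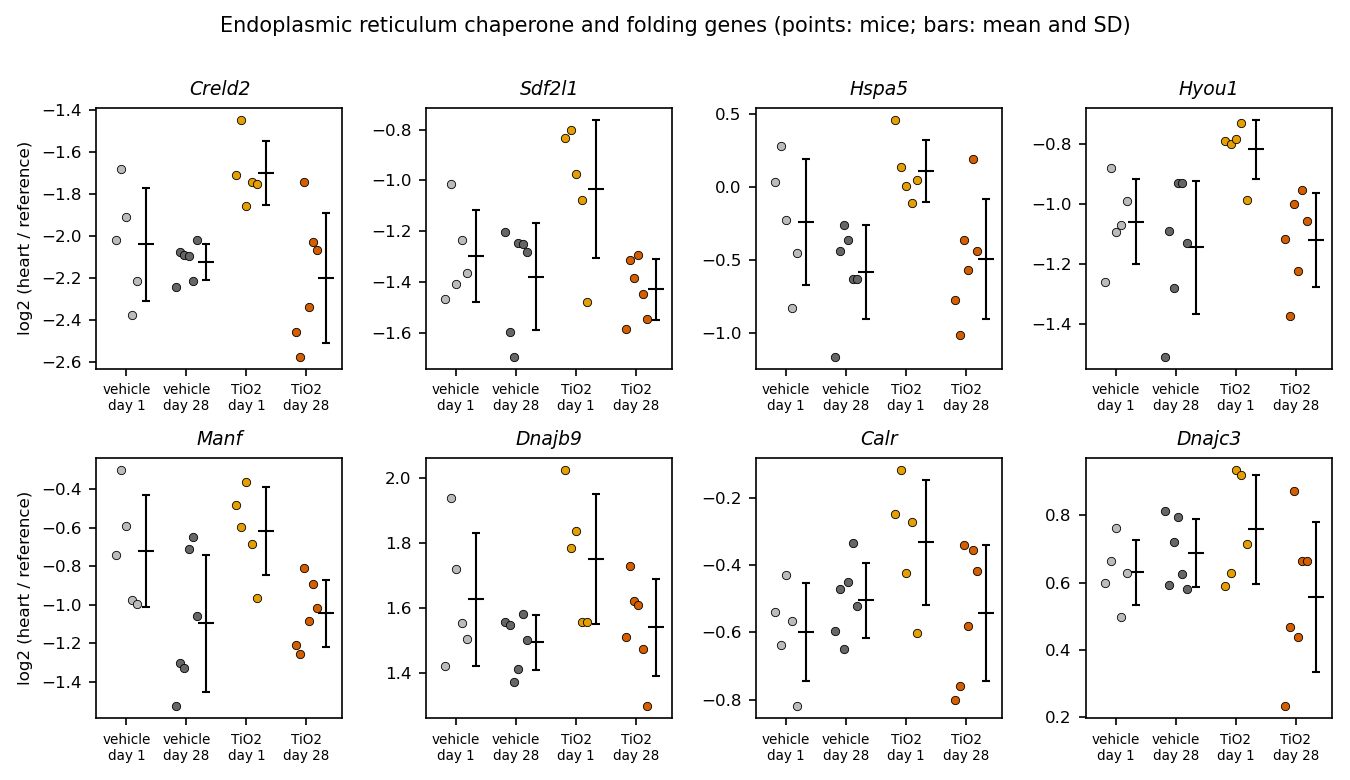
Log2 ratio of heart to reference (vertical axis) in each mouse (points) of the 4 groups (horizontal axis), with the group mean and SD as bars, for the 8 members of the unfolded protein response list with an unadjusted p under 0.05. In each, the day 28 nano-TiO2 mean lies below the day 1 nano-TiO2 mean, and the day 1 nano-TiO2 mean is above the day 1 vehicle mean. The same day 1 nano-TiO2 values set the choice of the 8, so neither comparison is a separate test.

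The heat shock list, chaperones of the cytosol, showed no such common direction: 8 of 21 members were higher and 13 lower, 0 passed and 3 had an unadjusted p under 0.05. Dnajb1, a J-domain partner of the cytosolic chaperone Hsp70, read -1.52, -1.26, -1.34, -1.05 and -0.95 at day 1 and -1.35 to -0.15 at day 28 (median -0.70). Its day 28 hearts fell apart, with mice 1 to 4 above every day 1 heart and mice 5 and 6 among them. The difference was 0.48 ± 0.18, and in the vehicle hearts it passed with 0.68 ± 0.18 (adjusted p = 0.0171). Hsph1, a nucleotide exchange factor for Hsp70, was higher by 0.24 ± 0.11, and Hsf1, the master regulator of the heat shock genes, lower by -0.29 ± 0.13. Second probes of Dnajb1 and Hsf1 gave 0.22 and -0.12.

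The complement system is a cascade of blood and tissue proteins that marks particles and cells for removal, and the series title names it for the heart. Of 24 measured complement members, 10 were higher and 14 lower at day 28 in the nano-TiO2 hearts, 0 passed, and the differences ran from -0.28 to 0.53 with a median of -0.063. Over the same interval 21 of the 24 were higher in the vehicle hearts, 14 passed, beside 10.4% of all genes, and the median was 0.78. Of the 24 members, 13 had an unadjusted p under 0.05 for the difference between both changes, where 14.6% of all genes did.

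C1s1, a protease of the first complement complex, was the 1 member with an unadjusted p under 0.05. It read -1.25, -0.96, -0.82, -0.22 and -0.68 at day 1 and -0.80 to -0.07 at day 28 (median -0.43). The groups overlapped widely, and the difference was 0.37 ± 0.17, against 0.66 ± 0.17 in the vehicle hearts (adjusted p = 0.0185). Clu, clusterin, an inhibitor of the terminal complex, differed by -0.24 ± 0.16 in the nano-TiO2 hearts and by 0.77 ± 0.16 in the vehicle hearts (adjusted p = 0.00585). The difference between these changes was -1.003 ± 0.23 (unadjusted p = 2.00e-04, adjusted p = 0.118). Fcna, ficolin A, a lectin of macrophages that starts the cascade, differed by 0.53 ± 0.37, and its highest value, 2.68, was that of day 28 mouse 6.

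The list means for complement show where the arms differed. The vehicle hearts stood at -0.55 ± 0.09 at day 1 and 0.49 ± 0.41 at day 28, and the nano-TiO2 hearts at -0.01 ± 0.38 and -0.02 ± 0.43 (SD; n = 5 at day 1 and 6 at day 28 in each arm). The day 1 nano-TiO2 hearts read -0.61, 0.27, -0.05, 0.34 and -0.01, and the day 28 hearts ran from -0.66 to 0.52, so that the groups overlapped. The complement list includes Cfd (adipsin), which fat makes in large amounts: it ran from 0.93 to 8.35 at day 1 and from 0.63 to 8.42 at day 28.

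Other inflammatory genes did not pass either. Of 23 cytokines and chemokines, 14 were higher and 9 lower, 0 passed and 2 had an unadjusted p under 0.05, Cx3cl1 and Cxcl12. In the vehicle hearts 11 of the 23 passed, beside 10.4% of all genes. Cxcl12, a chemokine that holds progenitor cells and lymphocytes in tissue, read 0.76, 0.47, 0.40, 0.19 and 0.57 at day 1 and 0.49 to 1.03 at day 28 (median 0.88). The groups overlapped, and the difference was 0.34 ± 0.15 against -0.45 ± 0.15 in the vehicle hearts. A second Cxcl12 probe, well above background on 4 of 5 and 4 of 6 nano-TiO2 arrays, gave 0.0068. For the first probe the difference between these changes was 0.78 ± 0.21 (unadjusted p = 9.45e-04, adjusted p = 0.118). Of 12 acute phase genes, 3 were higher and 9 lower, and of 18 macrophage markers 9 were higher and 9 lower, with no unadjusted p under 0.05 in either list (limma).

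Interferon-induced genes, which block the replication of viruses, leaned to the side of day 28 by number of members. Their list means overlapped in the nano-TiO2 hearts, with -0.22 to 0.13 at day 1 and -0.27 to 0.42 at day 28. Of 28 measured, 25 were higher and 3 lower, 0 passed and 2 had an unadjusted p under 0.05. The median difference was 0.18 (0.079 to 0.23 with 1 array left out). In the vehicle hearts the median was 0.26 and 4 passed, beside 10.4% of all genes. With median centring 17 were higher and 11 lower, and the median was 0.035. Usp18, an enzyme that removes the modifier ISG15 from proteins, read -1.80, -1.91, -1.41, -1.65 and -1.80 at day 1 and -1.65 to -1.16 at day 28 (median -1.33). The groups overlapped through day 28 mouse 1 alone, and the difference was 0.35 ± 0.15, with 0.02 ± 0.15 in the vehicle hearts. Ifit1, an RNA sensor, differed by 0.37 ± 0.17 and Oas1a, which activates RNA decay, by 0.26 ± 0.14.

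Cell cycle genes were low against the reference of cultured cells. Of 18 measured, 17 were higher at day 28 and 1 lower, 0 passed and 0 had an unadjusted p under 0.05 (limma), with a median of 0.13, beside -0.071 in the vehicle hearts. With median centring 7 were higher and 11 lower, and the median was -0.043. Ccnb2, a cyclin of mitosis, differed by 0.29 ± 0.14. Mcm4, a subunit of the replicative helicase, differed by 0.50 ± 0.28, but that value rested on day 28 mouse 4, at -0.41 where the other day 28 hearts lay between -2.73 and -2.47. Without that mouse the difference was 0.13.

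Of 19 contractile proteins measured, 16 were lower and 3 higher in the nano-TiO2 hearts, 0 passed, 2 had an unadjusted p under 0.05, and the median was -0.15. Within the 3 scan days the median lay between -0.25 and -0.084. On the 2 slides that held both groups, with 1 mouse of each group on each, it was -0.18 and 0.21. The vehicle median was -0.37, and 8 of 19 passed, beside 10.4% of all genes. Ttn, titin, the spring of the sarcomere, read 7.25, 7.05, 7.16, 6.90 and 7.11 at day 1 and 6.40 to 7.09 at day 28 (median 6.71). Day 28 mice 1 and 5 lay among the day 1 hearts and the others below them. The difference was -0.34 ± 0.13, and 7 other probes of the gene gave -0.49 to -0.11. Tnni3, cardiac troponin I, differed by -0.27 ± 0.11 and passed in the vehicle hearts with -0.39 ± 0.12 (adjusted p = 0.0344). Myoz2, a protein of the Z-disc, differed by -0.34 ± 0.19.

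Of the lists of energy metabolism, the respiratory chain had 13 of 36 members higher and 23 lower with a median of -0.025, the citrate cycle 10 of 18 higher and 8 lower with 0.031, and fatty acid oxidation 8 of 30 higher and 22 lower with -0.08. None of their members had an unadjusted p under 0.05 (limma). In the vehicle hearts 15, 9 and 11 of them passed, beside 10.4% of all genes, with medians of -0.37, -0.33 and -0.30. Of 25 genes of glucose use, 16 were higher and 9 lower. Pfkfb2, which sets the level of a glycolysis activator in heart, was the 1 of these with an unadjusted p under 0.05, at -0.45 ± 0.21, while its 2 other probes gave -0.079 and -0.32. Pgam2, the muscle phosphoglycerate mutase, differed by -0.20 ± 0.11, and Pfkfb1, a form of the same enzyme best known from liver, by 0.37 ± 0.21.

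Among regulatory programmes, 8 of 18 glucocorticoid-responsive genes were higher and 10 lower. Sult1a1, a sulfotransferase, read 4.13, 4.22, 4.29, 4.26 and 4.38 at day 1 and 3.40 to 4.61 at day 28 (median 3.56). In day 28 mice 1 to 5 it lay below every day 1 heart, and in day 28 mouse 6 above them. The difference was -0.52 ± 0.21, with 0.20 ± 0.21 in the vehicle hearts. Pnpla2, the first lipase of stored fat, differed by -0.37 ± 0.20, and by -0.17 for a second probe.

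Of 24 immediate early genes, 13 were higher and 11 lower, with an unadjusted p under 0.05 for 2. Ier5 was higher by 0.42 ± 0.14, Ccn1, a matrix-associated signalling protein, lower by -0.37 ± 0.18, and Atf3, a stress-induced transcription factor, differed by 0.33 ± 0.18. Of 36 extracellular matrix genes, 23 were higher and 13 lower. Serpinh1, the collagen chaperone of the ER, differed by -0.40 ± 0.14, Bgn, the proteoglycan biglycan, by 0.25 ± 0.11 and Loxl2, a collagen cross-linking enzyme, by 0.27 ± 0.13. Of 28 genes of the Nrf2 and metal response, 9 were higher and 19 lower, and Gstm2, a glutathione transferase, differed by 0.20 ± 0.08. Gstm1, of the same family and close in sequence, differed by -0.16 ± 0.14 and by 7.88e-04 for a second probe. Txnrd1, thioredoxin reductase, differed by 0.37 ± 0.28, a value that without day 28 mouse 4 was -0.0012.

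**Figure D4:**
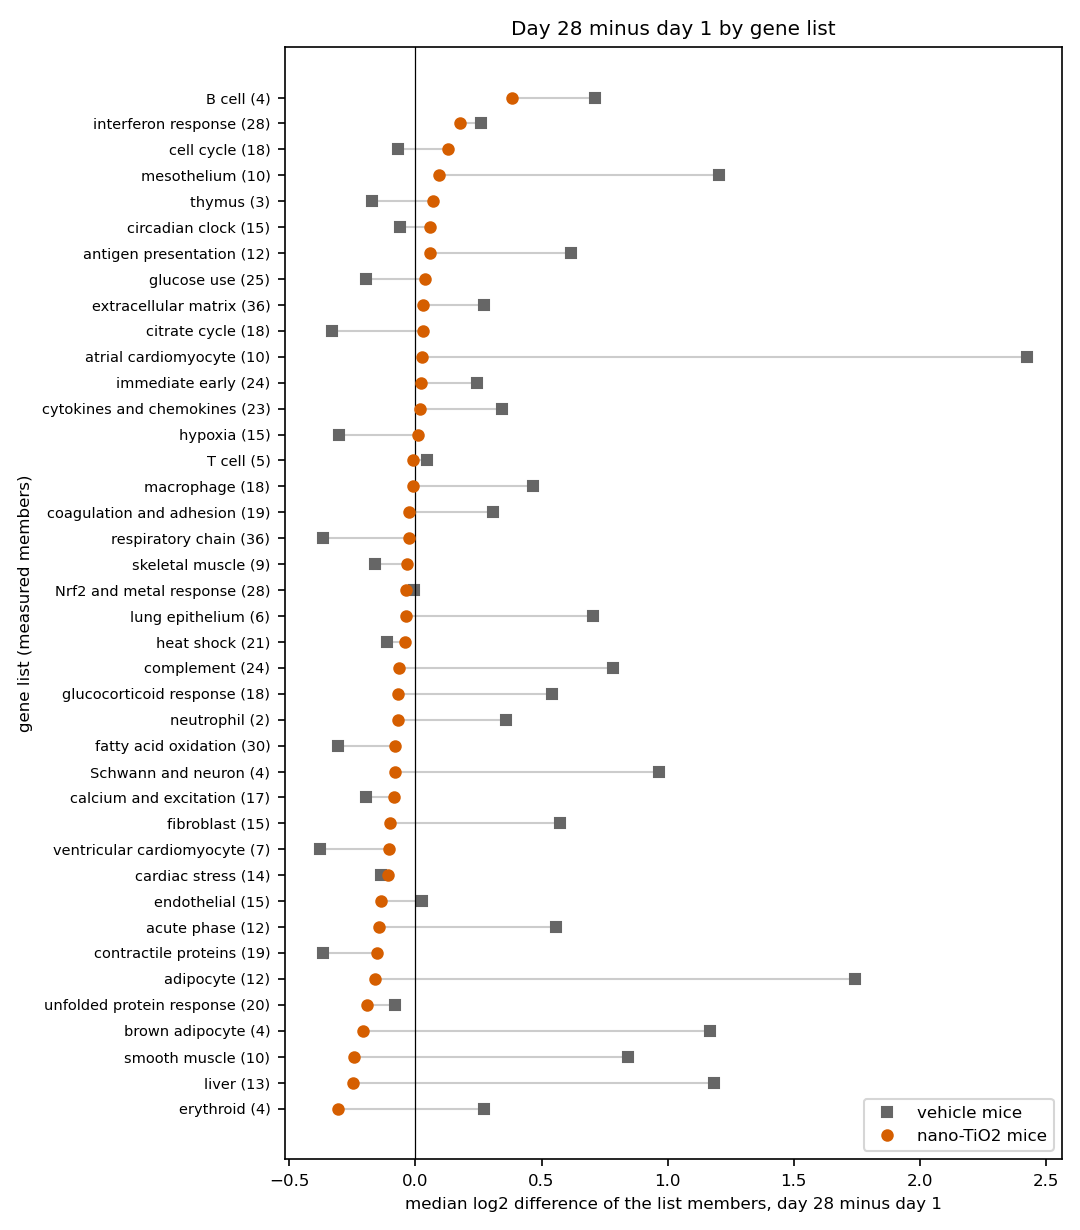
Median log2 difference between day 28 and day 1 over the measured members of each of 40 gene lists (vertical axis, with the number of measured members), in the nano-TiO2 hearts (circles) and the vehicle hearts (squares). The nano-TiO2 medians lie between -0.31 (erythroid; -0.50 to -0.16 with 1 array left out) and 0.38 (B cell; 0.030 to 0.53 with 1 array left out), while the vehicle medians reach 2.42 for atrial and 1.74 for adipocyte markers.

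No cell type marker passed between the nano-TiO2 groups, and the list medians lay between -0.31 (erythroid) and 0.38 (B cell). Single markers differed more, with wide SE, among them Fabp1 of the liver list (-1.35 ± 0.99) and Ucp1 of the brown fat list (-1.02 ± 0.88). Of 15 endothelial markers, 12 were lower and 3 higher, with a median of -0.14 and an unadjusted p under 0.05 for 2. Aplnr, the apelin receptor, read 2.31, 1.98, 1.72, 1.88 and 2.26 at day 1 and 1.17 to 2.00 at day 28 (median 1.56), a difference of -0.46 ± 0.16 with overlapping groups. Aplnr passed in the vehicle hearts with -0.76 ± 0.16 (adjusted p = 0.00595). Egfl7, an endothelial matrix protein, differed by -0.33 ± 0.14 in both arms. Cdh5, VE-cadherin of endothelial junctions, differed by -0.35 ± 0.21, but a second probe gave 0.006 and plain background subtraction gave 0.18.

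Hba-a1, alpha-globin of red blood cells, whose neighbouring copy has a near-identical sequence, read 5.15, 5.56, 5.16, 5.202 and 5.40 at day 1 and 4.33 to 5.09 in the 5 day 28 hearts with a value (median 5.08). The groups did not overlap, and the difference was -0.40 ± 0.14. Of the 4 B cell markers measured, all were higher, by 0.081 to 0.46, and 0 had an unadjusted p under 0.05 (limma). Day 28 mouse 6 had a B cell list mean of 1.52, where the other day 28 hearts lay at 0.33 or below, and without it the list's median of 0.38 was 0.030. One of 9 skeletal muscle markers, Mybpc2, a myosin-binding protein of fast muscle, had an unadjusted p under 0.05, at -0.31 ± 0.15.

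Atrial muscle, fat, mesothelium and smooth muscle were unevenly represented from mouse to mouse. The median difference of the atrial list was 0.024 in the nano-TiO2 hearts against 2.42 in the vehicle hearts, that of adipocyte markers -0.16 against 1.74, of mesothelium 0.092 against 1.20 and of smooth muscle -0.24 against 0.84. With 1 nano-TiO2 array left out, the nano-TiO2 medians ran from -0.67 (without day 1 mouse 1) to 0.50 (without day 28 mouse 1) for the atrial list and from -0.38 (without day 28 mouse 6) to 0.30 (without day 1 mouse 4) for adipocyte markers. They ran from -0.091 (without day 1 mouse 1) to 0.27 (without day 1 mouse 4) for mesothelium and from -0.32 (without day 28 mouse 6) to -0.019 (without day 28 mouse 1) for smooth muscle, so that the sign of the first 3 depended on single hearts. In the vehicle arm, atrial list means ran from -2.60 to -0.03 at day 1 and from 0.59 to 1.09 at day 28. Adipocyte list means there ran from -1.62 to -0.71 and from -0.23 to 2.08. The interval and the sampling of the heart thus cannot be told apart in the vehicle hearts. In the nano-TiO2 arm the gap in atrial transcripts lay within groups. Sln, sarcolipin, which is made in the atria of the mouse, read 0.24 in day 1 mouse 1 and 0.22 in day 28 mouse 1, and 7.14 to 7.57 in the other 9 nano-TiO2 hearts. Those 2 hearts had atrial list means of -2.69 and -2.60, where the others ran from 0.15 to 1.01, and the lowest adipocyte list means, -1.53 and -1.60. The 5 genes most variable within the nano-TiO2 groups were Sln, Cfd, Myl4, Mybphl and Myl7, 4 of them atrial. The part that uneven sampling of the heart had in any difference above was not tested beyond leaving these arrays out.

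Brown fat markers were as uneven. Ucp1, the heat-producing uncoupling protein of brown fat, read 0.03, 3.35, 0.02, 5.199 and 4.60 at day 1 and -0.19 to 4.85 at day 28 (median 1.31). Its difference was -1.02 ± 0.88. Cidea, a lipid droplet protein, was the 1 brown fat marker with an unadjusted p under 0.05. It read 5.80, 5.89, 5.82, 6.39 and 6.33 at day 1 and 5.34 to 6.08 at day 28 (median 5.74), a difference of -0.33 ± 0.14, against 0.40 ± 0.14 in the vehicle hearts.

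**Figure D5:**
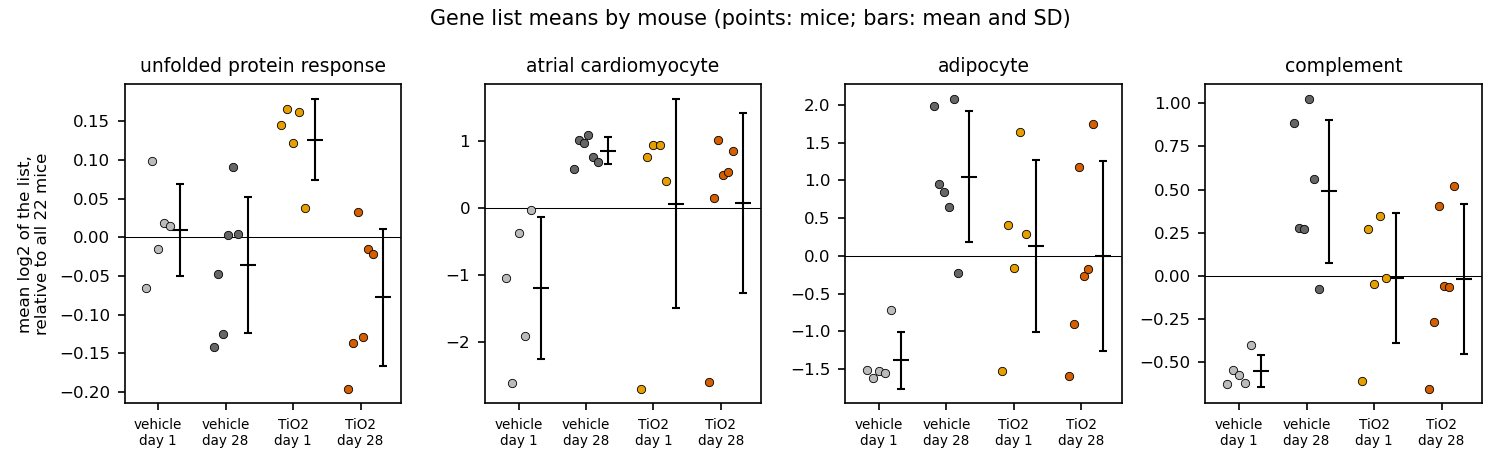
Mean log2 level of the list members relative to all 22 mice (vertical axis) in each mouse (points) of the 4 groups (horizontal axis), with the group mean and SD as bars, for unfolded protein response, atrial, adipocyte and complement genes. The nano-TiO2 groups nearly touch for the unfolded protein response, with 0.038 to 0.17 at day 1 and -0.20 to 0.033 at day 28. For atrial genes, 1 heart of each nano-TiO2 group lies near -2.6.

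All 7 genes with a difference of 1 or more were lower at day 28, and each varied widely within a group; they were picked after their values were seen. Nppb, the B-type natriuretic peptide of stretched heart muscle, differed by -1.44 ± 0.91. Its day 28 values were 5.59 to 6.29 in 5 hearts and -1.70 in mouse 4, and without mouse 4 the difference was -0.18. A second probe of Nppb read 4.30 in mouse 4 and gave a difference of -0.50. The array of mouse 4 had 0.881% of its spots left out as uneven or outlying, where the other nano-TiO2 arrays had 0.242% to 0.477%; their part in its values was not tested.

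Of the 7 genes, Ucp1 is described above, and 4 are best known from liver or from the blood proteins it makes. Fabp1, the liver fatty acid-binding protein, read -0.02, 3.80, 2.57, 2.17 and 0.06 at day 1 and -0.03 to 1.48 at day 28 (median 0.10), and was well above background on 3 of 5 and 2 of 6 arrays. Alb, albumin, read -0.02, 4.61, 1.42, 1.98 and 0.15 at day 1 and -0.20 to 1.98 at day 28 (median 0.22). Day 1 mice 2, 3 and 4 were high in both genes and in Serpina1d, an antitrypsin, which read 4.30, 2.98 and 2.15 there. The differences were -1.35 ± 0.99 for Fabp1, -1.06 ± 0.88 for Alb, -1.15 ± 0.78 for Serpina1d and -1.18 ± 0.78 for Apoc1, an apolipoprotein of liver and macrophages. Without day 1 mouse 2, the highest in the first 3 of these genes, the differences were -0.83 for Fabp1, -0.32 for Alb and -0.57 for Serpina1d. Of 13 liver markers measured, 11 were lower and 2 higher, and 0 had an unadjusted p under 0.05 (limma).

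Cyp26b1, which breaks down retinoic acid, was the 1 of the 7 with an unadjusted p under 0.05. It stood at 1.48 ± 0.75 at day 1 and 0.46 ± 0.90 at day 28 (SD, n = 5 and 6), a difference of -1.02 ± 0.45 (unadjusted p = 0.0335, limma adjusted p = 0.905). It was lower within all 3 scan days, by -1.71 to -0.45. On both slides, with 1 mouse of each group on each, it was lower by -2.12 and -1.93. The vehicle difference was -0.45 ± 0.45.

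The genes that passed in the vehicle hearts were looked up in the nano-TiO2 hearts, which share no mouse with them. The p of both comparisons used the same estimate of the spread. Of the 1075 genes higher at day 28 in the vehicle hearts, with a median difference of 0.59, 535 were higher in the nano-TiO2 hearts, where their median was -1.91e-04 and 14 (1.30%) had an unadjusted p under 0.05 in the same direction, beside 1.52% of all genes. The 537 genes lower at day 28 in the vehicle hearts, with a median of -0.39, had a median of -0.066 in the nano-TiO2 hearts, where 130 were higher and 35 (6.52%) had an unadjusted p under 0.05 in the same direction, beside 3.03% of all genes. The change of vehicle hearts itself depended on the processing, from 0 genes with slide as a fixed block to 3865 with the scanner's own log ratios.

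Whether the interval acted differently in both arms was tested by the difference between the changes. The vehicle groups also differed in atrial and fat transcripts, so the test does not separate the interval from the sampling of the heart. No gene passed (0%; smallest limma adjusted p = 0.0691), and 2262 genes (14.6%) had an unadjusted p under 0.05, 1556 of them with the lower change in the nano-TiO2 hearts (10%) and 706 with the higher (4.55%). The count of genes that passed was 316 without nano-TiO2 day 1 mouse 1, 181 without nano-TiO2 day 28 mouse 3, 34 without nano-TiO2 day 28 mouse 6, 99 without vehicle day 28 mouse 6, and 180 without both nano-TiO2 hearts low in atrial transcripts.

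The 5 named genes with the smallest p for a lower change were Fmo2, Lmod1, Crip1, Prdm6 and Myh11, each with an adjusted p of 0.0691. Lmod1 (leiomodin), Prdm6 and Myh11 (smooth muscle myosin) are known from smooth muscle, and Lmod1 and Myh11 are in the smooth muscle marker list. Lmod1 read 0.46, 2.08, 1.77, 2.21 and 1.61 in the day 1 nano-TiO2 hearts and 0.04 to 1.99 at day 28 (median 1.44), a difference of -0.36 ± 0.30. In the vehicle hearts it had means of 0.23 ± 0.29 at day 1 and 2.15 ± 0.35 at day 28, where it passed with 1.92 ± 0.30 (adjusted p = 0.0027). Both nano-TiO2 hearts low in atrial transcripts had the lowest Lmod1 of their groups. Myh11 differed by -0.22 ± 0.26 against 1.68 ± 0.26, Prdm6 by -0.30 ± 0.22 against 1.32 ± 0.22, Crip1 by -0.15 ± 0.17 against 1.10 ± 0.17, and Fmo2, a flavin-containing monooxygenase, by -0.31 ± 0.19 against 1.12 ± 0.19.

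The 5 named genes with the smallest p for a higher change were R3hdm1, Suclg2, N4bp3, Hnrnpc and Pphln1, with adjusted p between 0.0691 and 0.118. R3hdm1 read 0.05, -0.18, 0.09, 0.04 and 0.15 in the day 1 nano-TiO2 hearts and -0.08 to 0.32 at day 28 (median 0.18), a difference of 0.13 ± 0.08 against -0.40 ± 0.08 in the vehicle hearts. Suclg2, a subunit of the enzyme that makes GTP in the citrate cycle, differed by 0.13 ± 0.10 against -0.53 ± 0.10. Hnrnpc, a protein that packs nascent RNA, differed by 0.07 ± 0.10 against -0.53 ± 0.10, N4bp3 by 0.04 ± 0.08 against -0.49 ± 0.08 and Pphln1 by 0.10 ± 0.07 against -0.29 ± 0.07, while a second probe of Pphln1 gave -0.12 in the nano-TiO2 hearts. All 10 of these genes, chosen by a difference that the vehicle change enters, passed in the vehicle hearts, beside 10.4% of all genes. In the nano-TiO2 hearts 0 did, with unadjusted p of 0.101 or more in each.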

How the data were processed

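Heart RNA of 22 mice, in 4 groups by treatment and day, was compared with a common reference on Agilent 2-colour arrays, on 9 slides and 3 scan days. Per the file headers, Agilent Feature Extraction 10.7.3.1 made the scanner files, while the submitters' processing notes name version 9.5.3.1. The deposited files hold median spot and background intensity in both channels, and flags per spot for background, uneven spots and outliers. They also hold a log10 ratio that per the file headers is background-subtracted and dye-normalized. The authors' series matrix holds log2 values whose normalization is not given in the sources used here; its columns have medians of -0.0345 to -0.0207 on the nano-TiO2 arrays, and their correlation of 0.996 to 0.998 with unsubtracted loess ratios of the same arrays shows the same direction.

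Ratios were computed from the median intensities with R 4.3.3, limma 3.58.1 and the data.table package (version 1.17.8), and figures with Python 3.11.15 and matplotlib 3.10.9. Background was corrected with normexp (offset 50), fitted without spots marked for an uneven background, and loess was run within arrays with a weight of 0 for control spots. Uneven and outlying spots (0.299%) were left out, and spots of a probe averaged. The filter asked for a heart signal well above background on 5 or more of the 22 arrays, which 19281 probes passed. Of 41174 probes, 23374 were matched through RefSeq accessions to 16535 genes of GRCm38.p6. The brightest of the remaining probes in Cy5 stood for its gene, leaving 15510 genes to test, 10482 with a symbol; 152 lacked a value on some nano-TiO2 array and were fitted on the others.

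Genes were compared with limma, a mean for each of the 4 groups over all 22 arrays and eBayes, with Benjamini-Hochberg adjustment over all genes and a threshold of 0.05. The code was tested on simulated data. Per the labels the mice are separate animals.

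Named were, by smallest p, 12 genes per direction, 5 per direction for the difference between the arms, 3 members of a gene list (more of the unfolded protein response list, chosen after their values were seen), and genes that check the tissue. Predicted genes and clone names were skipped. The comparison, its 40 gene lists and these rules were chosen with earlier results of these data known. By the list rule, members were named only where a list had an unadjusted p under 0.05, and for cell cycle genes. Genes with a difference of 1 or more, and the genes most variable within groups, were named besides. These last choices and that limit came after the values were seen. Alternatives covered background correction, source of the ratios, normalization, filters, probes, variance model, blocks and left-out arrays.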

Additional observations from a re-analysis of the deposited data

Results flagged for a closer look

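In the nano-TiO2 groups, 16 of 256 sets of values (named genes and list means, by group) had a highest or lowest mouse set apart from the others by more than Dixon's 95% limit, where chance gives about 1 in 20; 8 of the 16 were low. Day 28 mouse 4 stood apart in Nppb (-1.70, the others 5.59 or more), Mcm4 (-0.41, the others -2.47 or less) and Txnrd1 (1.08, the others -1.04 or less). Day 1 mouse 1 and day 28 mouse 1 stood apart in the atrial list mean, at -2.69 and -2.60.

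Day 28 mouse 6 was highest in Sult1a1 (4.61, next 3.81) and Fcna (2.68, next 1.09) and lowest in Loxl2 (-0.45, next -0.25). Day 28 mouse 2 was highest in Ntf5 (0.11, next -0.17) and lowest in Hba-a1 (4.33, next 4.91). Day 28 mouse 3 was highest in Fabp1 (1.48, next 0.50) and lowest in the skeletal muscle list mean (-0.11, next -0.0055). At day 1, mouse 5 was lowest in Hyou1 (-0.99, next -0.80), mouse 1 lowest in Cxcl16 (0.75, next 0.98), mouse 2 highest in the neutrophil list mean (0.36, next 0.12) and mouse 4 highest in the B cell list mean (0.31, next -0.36).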

How the results depend on the processing

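The nano-TiO2 comparison gave 0 genes under all alternatives. Its count at an unadjusted p under 0.05 ran from 99 with median centring to 1045 with scan day as a fixed block. It was 388 without the 2 nano-TiO2 arrays lowest in atrial transcripts (an alternative chosen after seeing the data). With 1 nano-TiO2 array left out it was 467 to 945. The difference between the arms gave 48 genes with the scanner's log ratios, 75 with array weights, 6 with scan day as a block, 180 without those 2 arrays and 0 to 316 with 1 array left out. The vehicle comparison gave 78 genes with normexp on all spots, 3865 with the scanner's log ratios, 87 with median centring, 2535 with array weights, 0 with slide as a fixed block and 949 to 2070 with 1 array left out. The count was lower by more than 1.5 times without vehicle day 1 mouse 2 (949), day 28 mouse 4 (954) or day 28 mouse 5 (1065).

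Of the named genes, 2433 values under alternatives kept their direction and their side of the threshold and 16 turned. With median centring these were Atf4 (-0.024), Edem1 (-0.042), Gstm2 (-0.013), Hnrnpc (-0.015), N4bp3 (-0.13), Pphln1 (-0.013) and Suclg2 (-0.011). With normexp on all spots they were N4bp3 (-0.030) and Suclg2 (-0.084), with the scanner's log ratios Edem1 (-0.056) and Pphln1 (-0.013), and with the mean of a gene's probes Pphln1 (-0.0091) and Myh6 (0.083). Cdh5 turned with plain subtraction (0.18), Hnrnpc without day 1 mouse 2 (range with 1 array left out, -0.024 to 0.11) and Txnrd1 without day 28 mouse 4 (-0.0012 to 0.47). The cause was not tested in any of these. Of list medians, 1076 kept within the spread between replicates and 42 moved beyond it.

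No paired analysis was possible because each heart came from a separate mouse and the labels pair no mice. Precision was limited by 5 and 6 arrays per group, and genes near background have ratios drawn toward 0.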
